A study of Arabidopsis thaliana with 18 samples.

Results

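The response of wild-type Arabidopsis thaliana seedlings to hydrogen peroxide (H2O2) was measured as the difference between seedlings exposed to H2O2 and untreated seedlings of the same genotype. The comparison rests on 4 of the 18 arrays of the study, the 2 with H2O2 and the 2 without, all of the Columbia accession Col-0 (WT), and on 16548 genes. Seedlings were 10 days old. Per the labels they were lifted from plates, floated for 1 h on 3 mM MES buffer, and then given H2O2 at 20 mM. The titles and descriptions put the treatment at 6 h, and DMSO was present at 0.2% in treated and control solutions alike. No treatment time is recorded for untreated seedlings. For comparison, the same H2O2 treatment of a crf6 mutant and of a line called CRF6oe was used, each with its own untreated group, and also WT seedlings given the cytokinin benzyl adenine (BA) at 2 µM for 6 h, each group with 2 arrays. The CRF6 gene encodes CYTOKININ RESPONSE FACTOR 6, an AP2/ERF transcription factor. The labels give neither the allele of the mutant nor the promoter of CRF6oe. Per the series description, the treatments were meant to find target genes of CRF6.

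Hydrogen peroxide oxidises proteins, lipids and thiols. In plant cells it damages protein folding, which is met by heat shock proteins, chaperones that hold unfolding proteins until they are refolded or degraded. It also produces reactive aldehydes and other toxic products that glutathione S-transferases, glycosyltransferases and reductases render harmless. In the cell wall, H2O2 is the substrate of secreted class III peroxidases, which cross-link wall polymers or generate further oxygen species.

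Levels are given on the log2 scale of the deposited array signal, so a difference of 1 is 2-fold. Replicate arrays had a correlation of 0.977 to 0.991 over genes, and the WT H2O2 pair, at 0.977, was the least alike of the 9 pairs. The 6 CRF6oe arrays stood apart, with r = 0.917 to 0.947 against the other 12, so effects of the line and of its set of arrays cannot be told apart where CRF6oe is compared. CRF6 itself was not among the features with a gene name, and the mutant and CRF6oe labels were not checked on it. The 5 measured leaf mesophyll markers ranged from 4.02 to 12.16 in untreated WT, with RCA, the activase of Rubisco, at 11.77 and 11.75 untreated and 11.62 and 11.74 with H2O2. The labels are silent on whether replicates came from separate cultures. The p-values therefore measure the spread between these samples alone, and it may be technical.

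With H2O2, transcripts of most measured small heat shock proteins and of 6 of 8 listed HSP70 genes and co-chaperones were higher. Those of some detoxifying enzymes were higher too. Transcripts of 19 of 63 secreted peroxidases, 9 of 36 receptor kinases of 1 subfamily and 3 extensin-like wall proteins were lower. In all, 249 genes rose and 226 fell, 475 of 16548 or 2.87%, at an adjusted p under 0.05 (limma, Benjamini-Hochberg). The median called rise was 1.48 and the median called fall was -1.32 on the log2 scale, and 387 of the 475 changed at least 2-fold. At least 8-fold changes were found for 20 rising and 9 falling genes. The median change over all genes was -0.02, and for 37% of genes the H2O2 and untreated arrays did not overlap. Calls were fewest among dim genes. With the genes ranked by mean level and split into 4 sets of 4137, 16 rose and 16 fell in the dimmest set, against 92 and 91 in the third and 79 and 40 in the brightest. The count of 475 was 155 when only the 4 arrays were fitted, 188 without untreated replicate 2, 267 without H2O2 replicate 1 and 306 without untreated replicate 1. Of 83 called genes that are named, 49 passed under every alternative tried, 27 lost their call in the fit of only the 4 arrays, and none changed direction.

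**Figure D1:**
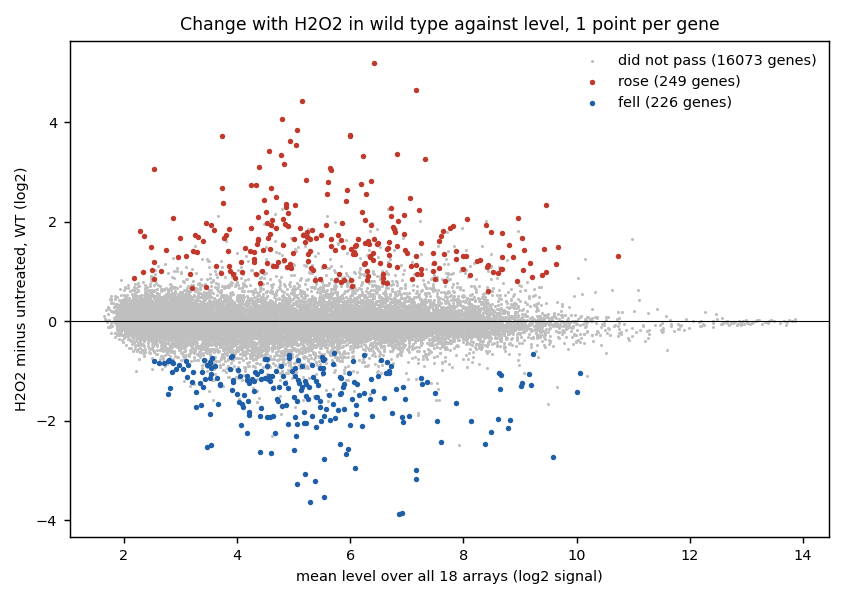
Each point is 1 of 16548 genes, with its mean level over all 18 arrays (log2 signal) on the horizontal axis and the difference H2O2 minus untreated in WT (log2) on the vertical axis. Red points are the 249 genes that rose, blue points the 226 that fell and grey points the rest. The largest rise is 5.18 and the largest fall -3.88, and most of the brightest genes lie near 0.

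Small heat shock proteins gave the largest rise of all and filled 5 of the 20 largest. Of 10 measured genes of a list of 16, 8 rose and none fell, where 1.5% of all genes rose, and the median of the 10 was 2.78 against -0.02 over all genes. AT2G29500, of cytosolic class I, read 4.79 and 4.24 untreated and 9.85 and 9.55 with H2O2, 36.3-fold higher with H2O2, which is 5.18 ± 0.29 on the log2 scale, where the error is the SE of the fit (adjusted p = 4.05e-07). AT1G53540 of the same class read 4.09 and 3.86 untreated and 8.56 and 8.25 with H2O2, which is 21.6-fold. AT1G07400, also class I, read 4.36 and 4.16 untreated and 8.18 and 7.81 with H2O2, 13.3-fold. In each of these the gap between the groups was several times the gap within a group. The 20 largest rises and the 20 largest falls were chosen among genes whose groups do not overlap, so the separation of their arrays is no result.

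The other small heat shock proteins that rose included mitochondrial and peroxisomal members. AT5G51440, a mitochondrial member, read 4.25 and 3.72 untreated and 7.81 and 7.40 with H2O2 and rose by 3.62 ± 0.25, and AT1G54050, of class III, read 4.78 and 4.94 untreated and 8.00 and 7.85 with H2O2 and rose by 3.07 ± 0.30. AT1G59860 of class I rose by 2.49 ± 0.22, the peroxisomal AT5G37670 by 1.98 ± 0.38 and AT1G52560 by 1.65 ± 0.28. Replicate 1 was higher than replicate 2 in the H2O2 group for all 8 that rose. Among those that did not pass, the endoplasmic reticulum member ATHSP22.0 (AT4G10250) was dim in all arrays, at 2.63 and 2.23 untreated and 2.72 and 2.73 with H2O2, and AT4G21870 was bright in all, at 8.76 and 8.82 untreated and 7.91 and 8.68 with H2O2.

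Co-chaperones and an HSP70 gene rose with them. Of 8 measured genes of a list of 30, 6 rose and none fell, with a median of 2.33. The HSP90 genes of the list were not measured. The DnaJ-domain gene AT1G71000, whose family feeds substrates to HSP70, read 3.33 and 3.87 untreated and 7.69 and 7.62 with H2O2, a 16.7-fold rise (adjusted p = 4.05e-07). Fes1A (AT3G09350), which protects cytosolic HSP70, read 5.07 and 4.54 untreated and 8.86 and 8.19 with H2O2, a 13.1-fold rise. Hop3 (AT4G12400), which links HSP70 to HSP90, read 3.78 and 3.44 untreated and 7.30 and 6.57 with H2O2, a 10.1-fold rise. Replicate 1 was the higher array in each group for Fes1A and Hop3. The peptidyl-prolyl isomerase AT5G48570 rose by 2.81 ± 0.35, the DnaJ-domain gene AT2G20560 by 1.85 ± 0.27 and the cytosolic HSP70 gene AT3G09440 by 1.53 ± 0.29. AT3G09440 was already bright without treatment, at 8.34 and 8.81, and its call was lost without untreated replicate 1 (adjusted p = 0.0925). Hsp70-2 (AT5G02490, 1.01) and Hop2 (AT1G62740, 0.64) did not pass.

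**Figure D2:**
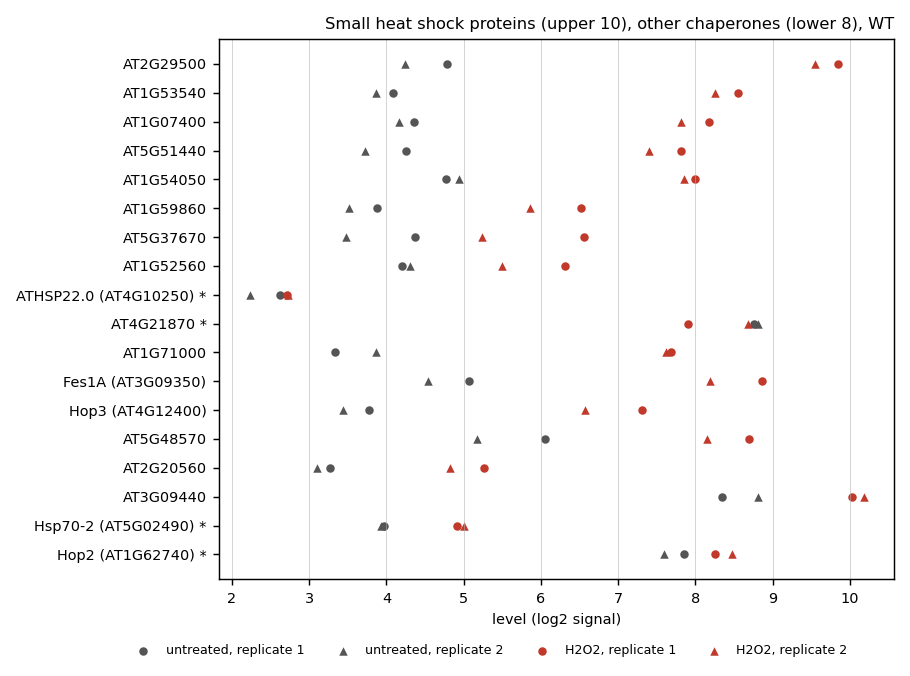
Each row is a gene of the small heat shock protein list (upper 10) or of the list of other chaperones and co-chaperones (lower 8), and each point 1 WT array, with its level (log2 signal) on the horizontal axis. Grey marks untreated and red marks H2O2, circles replicate 1 and triangles replicate 2, and a star marks the genes that did not pass. For the 14 genes that rose, both red points lie to the right of both grey points. These 14 were called on the same arrays, so the separation is no result.

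Measured genes of endoplasmic reticulum chaperones and of the degradation machinery changed less. Of 21 listed genes of endoplasmic reticulum chaperones and the unfolded protein response, 16 were not measured. None of the 5 measured passed, with changes from -0.15 to 1.00 and a median of 0.13. Among them were the calreticulin CRT1b (AT1G09210, -0.10) and ATERDJ3B (AT3G62600, 0.13). Of 11 measured proteasome subunits 2 rose and none fell, with a median of 0.34. AT5G20000, an ATPase of the regulatory particle, rose by 1.31 ± 0.25 and AT3G26340, of the core particle, by 0.90 ± 0.22. With only the 4 arrays, without H2O2 replicate 2 or without untreated replicate 2, neither subunit passed, and 1 did without H2O2 replicate 1 or untreated replicate 1. AT5G23540 stood at 0.53 and RPN12a (AT1G64520) at 0.33. Of the 9 measured ATG8 genes, which mark autophagosomes, none passed (median -0.03), and the bright ATG8F (AT4G16520) read 10.89 and 10.52 untreated and 10.60 and 10.32 with H2O2.

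Detoxifying enzymes were among the rises too. Of 11 measured genes of a list of glycosyltransferases, alkenal reductases and transporters, 6 rose and none fell, with a median of 1.54. UGT73B5 (AT2G15480), a glycosyltransferase of the stress-responsive UGT73B group, read 5.78 and 5.85 untreated and 9.69 and 8.65 with H2O2, a 10.3-fold rise (adjusted p = 5.31e-05). Its neighbour in the gene order of RefSeq (TAIR10.1), UGT73B4 (AT2G15490), read 5.21 and 6.00 untreated and 8.66 and 8.07 with H2O2, a 6.78-fold rise. UGT73B3 (AT4G34131) read 2.81 and 2.76 untreated and 5.79 and 5.13 with H2O2, a 6.37-fold rise. These 3 are close relatives, and signal of 1 transcript on the feature of another cannot be told apart here.

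The glycosyltransferase AT1G05675 had the largest rise of the list, from 3.31 and 2.26 to 7.22 and 5.77, or 13.1-fold. Its 2 arrays within each group differed by over 1 on the log2 scale. The dehydrogenase AT5G16980, of the alkenal reductase family, read 5.77 and 4.96 untreated and 9.71 and 7.67 with H2O2, a 10-fold rise. Its H2O2 arrays were also far apart, and its call was lost without H2O2 replicate 1 (adjusted p = 0.0796) and without untreated replicate 2 (0.0955). Its relative AER (AT5G16970) went from 5.98 and 5.50 to 7.91 and 6.56 and did not pass (adjusted p = 0.0688). UGT73C1 (AT2G36750) rose by 1.54 ± 0.37, but its call was lost without any of 3 of the 4 arrays (adjusted p = 0.176 to 0.287) and with the replicate number as a block (0.0577), while it passed without H2O2 replicate 2. UGT76B1 (AT3G11340), which glycosylates a defence-related hydroxy acid, stood at -0.67.

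Of 48 listed glutathione S-transferases, 15 were measured and 33 were not. Of the 15, 3 rose and none fell, where 1.5% of all genes rose, and the median of the 15 was -0.01. GSTU25 (AT1G17180), of the tau class, read 3.31 and 4.38 untreated and 7.20 and 7.33 with H2O2, a 10.7-fold rise (adjusted p = 0.000852). Its H2O2 arrays nearly coincided, while the untreated arrays differed by about 1. GSTF3 (AT2G02930) rose by 1.74 ± 0.43 and ATGSTF13 (AT3G62760) by 1.11 ± 0.27. Both calls were fragile. That of GSTF3 was lost without H2O2 replicate 1 (adjusted p = 0.308), untreated replicate 1 (0.0612) or untreated replicate 2 (0.356), and that of ATGSTF13 without any 1 of the 4 arrays (0.129 to 0.227) and with the replicate number as a block (0.0692). The count of 3 was 1 with only the 4 arrays. The bright members GSTL3 (AT5G02790) and GSTU20 (AT1G78370) stood at 0.06 and 0.49.

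A list of scavenging enzymes included those that remove peroxide and superoxide, those that regenerate ascorbate and glutathione, and a glutaredoxin. Of 10 measured, 3 rose and none fell, where 1.5% of all genes rose, and the median of the 10 was 0.14. No ascorbate peroxidase or peroxiredoxin was among the 3. ATMDAR2 (AT5G03630), a monodehydroascorbate reductase that regenerates ascorbate, read 8.67 and 8.77 untreated and 10.11 and 9.93 with H2O2, a rise of 1.29 ± 0.21 (adjusted p = 0.00265). GRX480 (AT1G28480), a glutaredoxin that acts with TGA transcription factors, read 2.97 and 2.50 untreated and 5.47 and 3.88 with H2O2. It rose by 1.94 ± 0.37, with H2O2 replicate 1 far above replicate 2, and lost its call without H2O2 replicate 1 (adjusted p = 0.0637) or untreated replicate 2 (0.121). GR1 (AT3G24170), a glutathione reductase, read 8.64 and 8.71 untreated and 9.56 and 9.39 with H2O2, a rise of 0.80 ± 0.17. Its call was lost without H2O2 replicate 1 (adjusted p = 0.136), untreated replicate 1 (0.114) or untreated replicate 2 (0.105). The count of 3 was 1 with only the 4 arrays. The thylakoid ascorbate peroxidase TAPX (AT1G77490), at 0.05, and the peroxiredoxin AT3G11630, at -0.12, stayed near 0. Catalases, superoxide dismutases and most other members of the 49 listed were not among the named features.

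Of 6 measured genes of the mitochondrial dysfunction list, which collects genes that rise when mitochondria fail, 4 rose and none fell, with a median of 1.43. These were the small heat shock protein AT5G51440, which belongs to both lists, AT2G41730, AT2G21640 and NDB2 (AT4G05020). AT2G41730 read 3.69 and 4.12 untreated and 7.19 and 6.80 with H2O2, an 8.54-fold rise. AT2G21640, known as a gene raised by oxidative stress, read 5.04 and 5.01 untreated and 6.49 and 6.60 with H2O2 and rose by 1.51 ± 0.25. NDB2, an alternative NADH dehydrogenase of the inner membrane, read 5.35 and 5.91 untreated and 6.96 and 6.99 with H2O2. It rose by 1.34 ± 0.23, and its call was lost without untreated replicate 1 (adjusted p = 0.0622). AT5G09570 and AT5G64400 stood at -0.24 and 0.55.

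Of 7 measured stress-induced transcription factors of a list of 48, 4 rose and 1 fell, with a median of 1.30. With only the 4 arrays 1 rose and none fell, and 2 rose without untreated replicate 1. The ERF gene AT1G71520 read 3.81 and 3.94 untreated and 8.02 and 6.82 with H2O2, an 11.6-fold rise (adjusted p = 0.00097). STZ (AT1G27730), a zinc-finger repressor also called ZAT10, read 8.68 and 8.43 untreated and 11.11 and 10.12 with H2O2, a 4.17-fold rise whose call was lost with only the 4 arrays (adjusted p = 0.053). WRKY6 (AT1G62300), a factor of senescence and defence, read 9.72 and 9.29 untreated and 11.73 and 10.28 with H2O2. Every array with H2O2 lay above the untreated ones for these 3, but they were chosen as called rises, so this is no result. H2O2 replicate 1 was the higher of its pair in each of the 3. WRKY6 rose by 1.50 ± 0.36, but its call was lost without H2O2 replicate 1 (adjusted p = 0.346), untreated replicate 1 (0.0804) or untreated replicate 2 (0.32). The ERF gene AT1G33760 rose by 1.30 ± 0.25, with its call lost without untreated replicate 1 (adjusted p = 0.0873). WRKY29 (AT4G23550), a factor of immune signalling, fell from 7.65 and 7.61 to 6.39 and 6.58, with its call lost without H2O2 replicate 1 (adjusted p = 0.0609) or untreated replicate 2 (0.0535). WRKY22 (AT4G01250, 0.93) and ZAT7 (AT3G46090, 1.25) did not pass.

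Of 6 measured genes of the abscisic acid, cold and dehydration response, 2 rose and none fell, with a median of 0.88 and all 6 above 0. COR15A (AT2G42540), which protects chloroplast membranes in the cold, read 8.46 and 8.98 untreated and 10.68 and 11.42 with H2O2, a 5.02-fold rise. KIN2 (AT5G15970), a small hydrophilic cold-induced protein, read 8.96 and 9.44 untreated and 10.04 and 10.65 with H2O2 and rose by 1.14 ± 0.23. In both genes replicate 2 was the higher array of its group, and KIN2 lost its call without H2O2 replicate 2 (adjusted p = 0.106) or untreated replicate 1 (0.146). With only the 4 arrays 1 of the 2 rose. COR47 (AT1G20440) and LTI30 (AT3G50970), dehydrins, stood at 0.03 and 0.62.

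Several of the 20 largest rises belong to none of these groups. AT5G54165 read 4.74 and 4.16 untreated and 9.50 and 8.70 with H2O2, the next largest rise of all at 25.1-fold (adjusted p = 7.72e-07). AT5G22140, annotated as an FAD/NAD(P)-binding oxidoreductase, read 4.09 and 4.44 untreated and 8.28 and 7.93 with H2O2, a 14.4-fold rise. AT4G01870 read 7.17 and 5.95 untreated and 10.19 and 9.45 with H2O2, a 9.6-fold rise. Replicate 1 was the higher array with H2O2 in all 3. AT4G08555, close to the array's lowest signals without treatment, read 1.94 and 1.93 untreated and 5.67 and 4.31 with H2O2, and AT1G76600 read 5.33 and 4.35 untreated and 8.32 and 7.43 with H2O2. BGLU28 (AT2G44460), a beta-glucosidase linked to glucosinolate breakdown under sulfur shortage, read 4.02 and 3.37 untreated and 6.21 and 7.49 with H2O2. Its rise of 3.16 ± 0.67 had the largest error of the 20, and its call was lost without H2O2 replicate 2 (adjusted p = 0.127), untreated replicate 1 (0.0537) or untreated replicate 2 (0.181).

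The largest falls were in leucine-rich-repeat receptor kinases of subfamily I, membrane proteins with a malectin-like outer domain, of which few have a known ligand. Of 36 measured members of 42, 9 fell and none rose, where 1.37% of all genes fell, and the median of the 36 was -0.37. AT1G51830 read 8.17 and 8.58 untreated and 4.46 and 4.53 with H2O2, a fall of 14.7-fold (adjusted p = 6.6e-06). AT1G51840 read 8.22 and 8.53 untreated and 4.48 and 4.53 with H2O2, nearly the same levels on every array. AT1G51850 read 7.41 and 6.07 untreated and 3.75 and 2.44 with H2O2. These 3 and AT1G51860, which read 7.12 and 7.06 untreated and 4.85 and 4.20 with H2O2, follow each other in the RefSeq gene order and were the longest run of neighbouring genes that fell. Since AT1G51830 and AT1G51840 are related and had almost equal levels, it is uncertain which of them gave the signal. AT1G51850 differed widely between replicates in each group.

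Other members of the subfamily fell elsewhere in the genome. AT2G28960 fell by 6.84-fold, AT1G05700 by 6.22-fold and AT1G07560 by 5.8-fold, the last of these from 4.69 and 4.94 to 2.48 and 2.08. AT2G28970, next to AT2G28960, stood at -1.56 ± 0.33 and AT2G14510 at -1.17 ± 0.29, and both passed. Bright members did not all fall, with AT1G51805 at 9.09 and 9.18 untreated and 8.90 and 9.25 with H2O2 and AT1G51890 at 7.20 and 6.25 untreated and 7.09 and 6.03 with H2O2. These lie in the same stretch of chromosome 1 by their locus codes.

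Class III peroxidases, the list with the most measured members, also had the largest number of falls. Of 63 measured genes of 72 listed, 19 fell and none rose, where 1.37% of all genes fell. The median of the 63 was -0.33. AT4G30170 read 8.09 and 8.46 untreated and 4.84 and 5.72 with H2O2, a fall of 8-fold (adjusted p = 3.65e-05). AT5G19890 read 6.87 and 7.31 untreated and 3.94 and 4.34 with H2O2, a fall of 7.74-fold. AT3G01190 read 6.02 and 6.53 untreated and 3.37 and 3.98 with H2O2, a fall of 6.07-fold. Replicate 2 was the higher array in each group of these 3, and the groups stayed at least 2 apart on the log2 scale. AT2G18980 fell by 4.33-fold, AT3G49960 by 4.17-fold and AT4G26010 by 4.01-fold. The calls of AT3G49960 and AT4G26010 were lost without untreated replicate 2 (adjusted p = 0.0781 and 0.0539).

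The other 13 peroxidases that fell did so by 4.01-fold (AT5G64100) to 1.72-fold (AT4G11290). The brightest members did not pass. PRXR1 (AT4G21960) read 11.50 and 11.87 untreated and 11.39 and 11.82 with H2O2 and AT5G64120, next by locus code to AT5G64100 and AT5G64110, which fell, read 10.34 and 9.53 untreated and 9.25 and 7.98 with H2O2, with replicates far apart in each group. No peroxidase reached a change above 0.86, and 15 of the 63 were above 0. The count of 19 was 10 with only the 4 arrays and 9 without untreated replicate 2. Many of these peroxidases are known from roots. In whole seedlings, fewer cells of a type and less RNA per cell cannot be told apart.

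**Figure D3:**
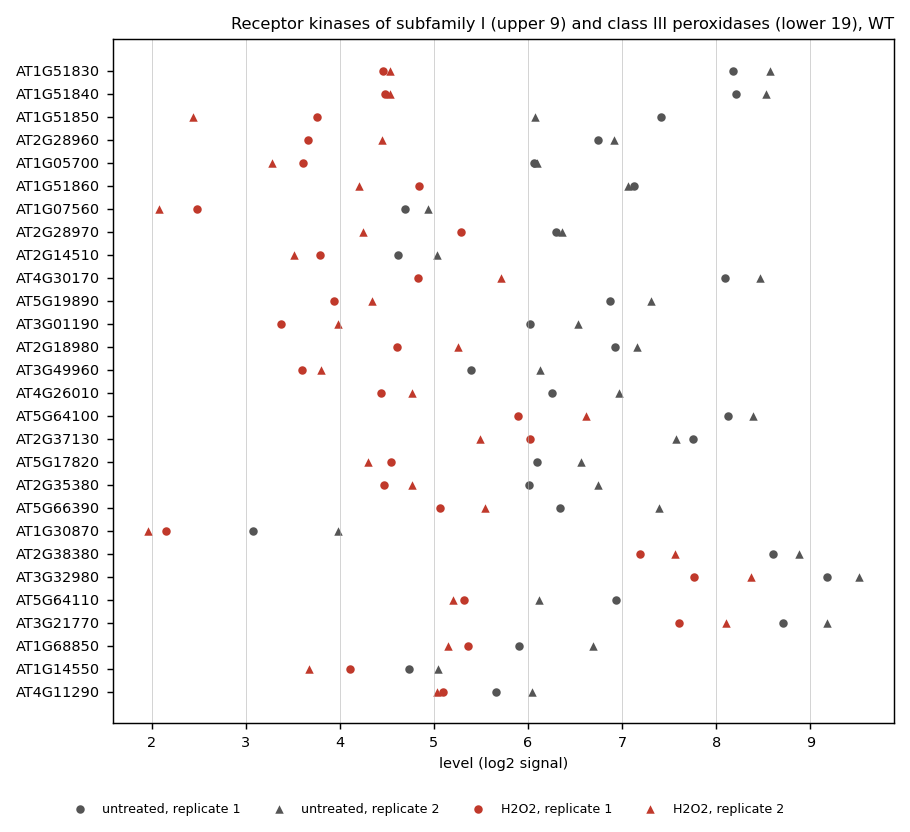
Each row is a gene of the receptor kinase list (upper 9) or of the class III peroxidase list (lower 19) that fell, and each point 1 WT array, with its level (log2 signal) on the horizontal axis. Grey marks untreated and red marks H2O2, circles replicate 1 and triangles replicate 2. Both red points lie to the left of both grey points in every row, and the gap is widest for AT1G51830 and AT1G51840. The rows were chosen as called falls on these same arrays, so the separation is no result. The groups did not overlap for 37% of all genes.

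Among wall proteins, falls were called for extensin-like genes and for no expansin or xyloglucan enzyme. Of 30 measured expansins, xyloglucan enzymes and extensins 3 fell and none rose, with a median of -0.49 and 22 of 30 below 0. All 3 were extensin-like proline-rich proteins, hydroxyproline-rich glycoproteins that form networks in the wall. AT1G26250 read 5.71 and 5.59 untreated and 2.16 and 2.57 with H2O2, a fall of 9.75-fold (adjusted p = 1.48e-05). AT3G28550 read 5.27 and 6.68 untreated and 1.94 and 3.59 with H2O2 and AT1G23720 read 5.45 and 6.28 untreated and 3.49 and 4.13 with H2O2. AT3G28550 had widely spaced replicates in each group, and its call was lost without H2O2 replicate 1 (adjusted p = 0.0661) or untreated replicate 2 (0.0922). The count of 3 was 1 with only the 4 arrays. The bright AT2G43150 and the xyloglucan enzyme EXGT-A3 (AT2G01850) stood at -0.28 and -0.08.

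The remaining large falls came from several families. OSM34 (AT4G11650), an osmotin-like defence protein, read 9.72 and 9.39 untreated and 6.63 and 7.02 with H2O2, a fall of 6.64-fold from a bright signal. The arsenate reductase AT2G21045, which limits arsenic accumulation, read 6.70 and 6.79 untreated and 3.70 and 4.46 with H2O2, a fall of 6.36-fold. The RING-type ubiquitin ligase gene AT2G20030 read 5.99 and 5.92 untreated and 3.13 and 3.46 with H2O2, a fall of 6.31-fold with the lowest error of the 20 largest falls. AT3G20380 fell by 11.6-fold, AT3G54040 by 9.05-fold and the berberine bridge enzyme-like AT5G44380 by 5.56-fold. The neighbouring jacalin-related lectins AT1G52060 and AT1G52070 read 5.83 and 7.49 untreated and 3.63 and 3.55 with H2O2 for the former and 4.10 and 5.41 untreated and 2.52 and 2.01 with H2O2 for the latter. Untreated replicate 2 was far above replicate 1 for both lectins. Without it the calls were lost (adjusted p = 0.19 and 0.0517), and that of AT1G52060 was lost also without either H2O2 array (0.0658 and 0.0503).

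Markers of cell types differed in how far they moved. The 3 measured root hair markers of 25 listed were all lower, with the cellulase GH9C1 (AT1G48930) at 4.79 and 6.10 untreated and 4.01 and 3.66 with H2O2, EXPA18 (AT1G62980) at 4.51 and 4.19 untreated and 3.38 and 3.49 with H2O2 and EXPA7 (AT1G12560) at 4.32 and 4.63 untreated and 3.78 and 3.67 with H2O2, the latter pair being expansins counted in the wall list too. Only GH9C1 passed, by -1.61 ± 0.36, and its call was lost without any of 3 of the 4 arrays (adjusted p = 0.0691 to 0.326). The summed signal of the 3 markers, on the linear scale, was 70.3 and 111.4 untreated and 40.3 and 36.6 with H2O2, and none was at 0. Their part in the falls of peroxidases, extensin-like genes and receptor kinases was not tested. For 5 leaf mesophyll markers of 25 the summed signal was 8432.6 and 9374.3 untreated and 7987.7 and 9761.6 with H2O2, none passed, and the median change was 0.02. For 3 markers of the stomatal lineage of 4 it was 308.3 and 221.6 untreated and 195.9 and 226.4 with H2O2, and none passed. Markers of endodermis, vascular tissue, seed and flower were not among the named features.

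Few hormone-related genes were measured. Of 5 auxin response and transport genes 1 fell, LBD16 (AT2G42430), a factor of lateral root initiation, from 4.07 and 4.49 to 3.58 and 3.59. Its call was lost without 3 of the 4 arrays taken out in turn (adjusted p = 0.112 to 0.427) and also with quantile normalization (0.0536) or arrays centred on their median (0.0679). None of 4 cytokinin genes passed, with changes from -0.46 to -0.33, and the only measured gene of 28 in the jasmonate, ethylene, salicylate and camalexin list, PDF1.2 (AT5G44420), read 5.43 and 4.48 untreated and 5.75 and 4.59 with H2O2 with wide replicates. None of the 63 plastid-encoded genes passed (median -0.02) and none of the 12 mitochondrially encoded genes did (median -0.09). Heat shock factors and aquaporins were not among the named features.

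**Figure D4:**
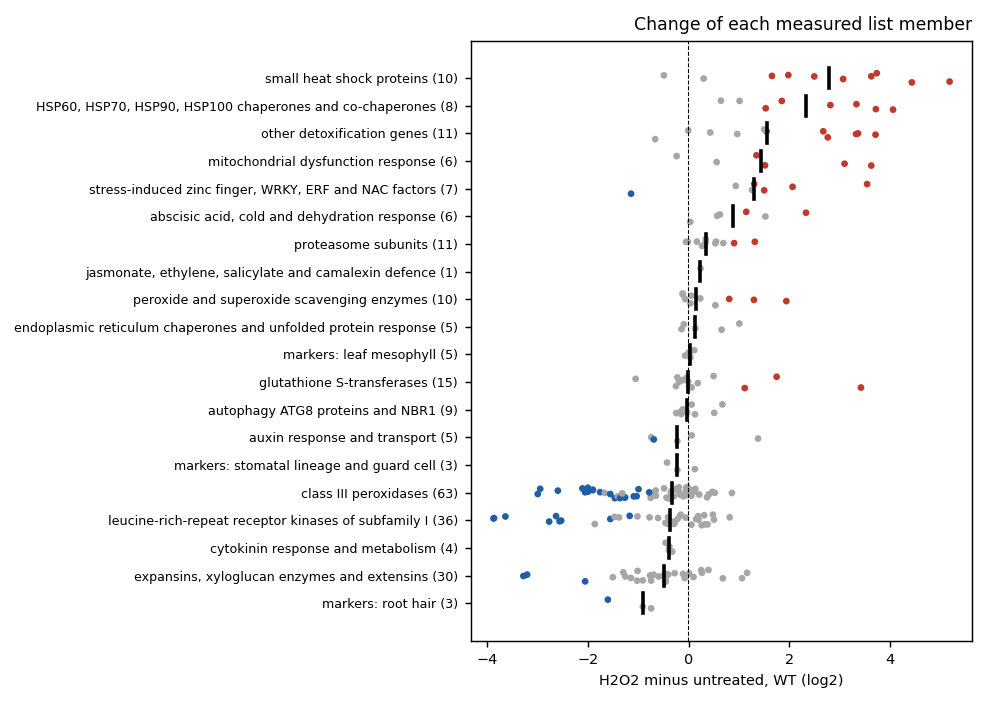
Each row is a gene list with the number of measured members in brackets, and each point 1 member, with its change H2O2 minus untreated in WT (log2) on the horizontal axis. Red points rose, blue points fell and grey points did not pass. Black bars are list medians and the dashed line is the median of all genes, -0.02. Chaperone and detoxification lists lie at the top with medians of 2.78, 2.33 and 1.54.

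The BA arrays of WT show how far these genes stood from untreated after another treatment of the same length. BA against untreated called 27 genes (0.163%), and H2O2 against BA called 839, 5.07%, with 476 higher (2.88%) and 363 lower (2.19%). These comparisons share the untreated or the H2O2 arrays with the main one, so only values are set side by side. AT2G29500 read 4.68 and 4.15 with BA, AT1G53540 3.42 and 3.86 and AT1G07400 3.56 and 3.36, close to or below their untreated levels. H2O2 exceeded BA by 5.28 ± 0.29, 4.77 ± 0.35 and 4.53 ± 0.24 in these 3 (adjusted p = 1.17e-07, 2.44e-06 and 1.17e-07). AT5G54165 and AT5G51440 differed by 4.61 and 4.51, the other 2 of the 5 largest excesses. None of the 20 largest rises with H2O2 changed by more than 0.88 with BA in either direction.

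Genes chosen for a fall with H2O2 share their untreated arrays with BA, so their levels with BA are given as values. AT1G51830 read 7.57 and 7.93 with BA, a change of -0.63 against -3.88 with H2O2, and the 2 treatments differed by -3.25 (adjusted p = 3.08e-05). AT3G20380 read 5.07 and 4.90, or -2.27 against -3.54, and that difference did not pass (adjusted p = 0.168). OSM34 kept its untreated level with BA, at 9.67 and 9.63, and differed by -2.82 between treatments. The median change of the 36 receptor kinases was -0.36 with BA and -0.37 with H2O2, with 30 and 25 of them below 0. For the 63 peroxidases it was -0.25 and -0.33, with 45 and 48 below 0. For the 30 wall genes it was -0.26 and -0.49, and for the 3 root hair markers -0.90 and -0.91. Over all genes it was -0.02 in both. With BA 1 receptor kinase and 1 peroxidase passed as lower and 1 wall gene as higher. The cytokinin-induced response regulator ARR15 (AT1G74890) read 7.58 and 7.11 with BA and 3.17 and 3.13 with H2O2, the largest deficit of H2O2 against BA at -4.19. AT5G26260 and the polygalacturonase-like AT5G14650 went opposite ways, -1.66 and -1.44 with H2O2 and 1.97 and 1.90 with BA, all 4 of which passed.

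The crf6 mutant was measured on arrays separate from those of WT. With H2O2 143 genes rose and 180 fell there, 323 in all (1.95%). The 143 that rose in crf6 stood at a median of 1.87 above the untreated mean in WT H2O2 replicate 1 and 1.33 in replicate 2, with 142 of 143 above it in each array. The 180 that fell in crf6 stood at medians of -1.32 and -1.29, with 177 and 176 below. AT2G29500 read 4.03 and 4.57 in untreated crf6 and 8.73 and 8.51 with H2O2, and AT1G51830 read 7.98 and 8.11 and 3.63 and 3.99. The difference between the 2 responses passed for no gene in limma (lowest adjusted p = 1). Of 16548 genes, 480 had an unadjusted p under 0.05, fewer than that threshold gives where no gene differs. The median SE of that difference was 0.32, so this does not show that the responses were alike. For AT5G54165 the response was 4.65 in WT and 2.95 in crf6, a difference of -1.70 ± 0.44, and for AT2G29500 the difference was -0.86 ± 0.41.

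In CRF6oe 433 genes changed with H2O2 (2.62%), and for 95 genes the response differed from that of WT, 55 higher and 40 lower (0.574%). With arrays centred on their median the split was 41 higher and 51 lower, and with only the 8 arrays of the 2 genotypes 1 gene differed. Without CRF6oe untreated replicate 1 the count was 12, and without CRF6oe H2O2 replicate 1 it was 13. Small heat shock proteins responded in CRF6oe as well. AT1G53540 rose by 4.37 there against 4.43 in WT, AT1G54050 by 3.90 against 3.07, and AT2G29500 by 3.34 against 5.18, and none of these 3 differences passed (adjusted p = 0.978, 0.418 and 0.067).

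Among genes that rose in WT and belong to the 20 largest rises or to a list described above, the difference passed for AT2G41730, UGT73B3, COR15A, KIN2, AT4G08555, AT5G22140 and AT5G54165, each with the lower response in CRF6oe. These genes were chosen on their response in WT, which enters the difference. AT2G41730 read 3.77 and 3.81 in untreated CRF6oe and 3.81 and 3.76 with H2O2, a difference of response of -3.10 ± 0.65 (adjusted p = 0.0483). AT5G54165 started higher, at 9.20 and 8.32, and reached 11.12 and 11.33, above its level in WT with H2O2. Among genes that fell in WT, several started lower in CRF6oe and fell less. AT1G05700 read 4.02 and 4.08 untreated and 4.26 and 3.83 with H2O2, against 6.06 and 6.10 and 3.61 and 3.28 in WT, and the responses differed by 2.63 ± 0.41 (adjusted p = 0.0165). The peroxidase AT3G01190 read 4.82 and 5.28 and 5.17 and 4.83 (adjusted p = 0.0183 for the difference). The counts of peroxidases and subfamily I receptor kinases that fell in CRF6oe were 6 of 63 and 2 of 36, where 200 of all 16548 genes fell. Of all genes, 0.332% had a higher response in CRF6oe than in WT. The difference of response passed for 3 members of each list, all with the higher value in CRF6oe. In the wall list it passed for AT3G54580, with the lower value in CRF6oe.

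**Figure D5:**
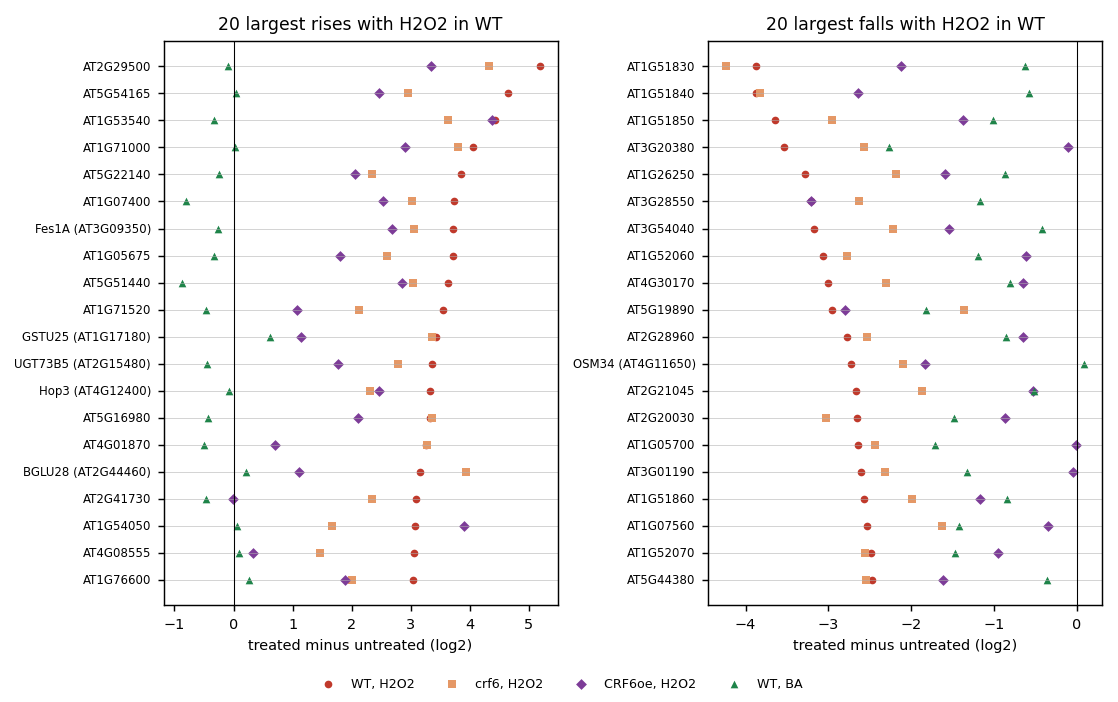
Each row is 1 of the 20 genes with the largest rise (left) or fall (right) with H2O2 in WT, chosen on the WT H2O2 values. The horizontal axis is treated minus untreated (log2), with red circles for WT with H2O2, orange squares for crf6 with H2O2, purple diamonds for CRF6oe with H2O2 and green triangles for WT with BA. Green triangles on the left lie between -0.88 and 0.62, and purple diamonds on the right lie between -3.21 and 0.

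Within the WT H2O2 group the 2 arrays differed in how far they had moved. Among the 249 genes that rose, replicate 1 was farther from the untreated mean in 191, and among the 226 that fell in 128. In the genes called in crf6, which were not chosen on WT arrays, the median of replicate 1 was the higher for rises, and the medians of the pair were almost equal for falls. Leaving out H2O2 replicate 1 gave 126 rises and 141 falls, and leaving out replicate 2 gave 332 and 193.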

How the data were processed

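Biotin-labelled cRNA from total RNA was hybridised to 1-colour arrays, per the labels' protocols. The authors deposited 1 value per feature and array, taken here to be log2 from the values themselves. For background correction, normalization, batches and dates, the steps are not given in the sources used. Values were used as deposited.

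Of 38408 features, 16722 were paired with exactly 1 gene by the platform's annotation, 759 with several and 20927 were not listed. Of the 16722, 16715 matched the RefSeq gene table (TAIR10.1). The feature with the highest mean stood for a gene with several features, leaving 16548 genes. AGI locus codes are used where no symbol was given.

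Means of 9 groups were fitted to 18 arrays with limma 3.58.1 in R 4.3.3 (9 residual and 5.63 prior degrees of freedom), with two-sided contrasts and Benjamini-Hochberg adjustment over the 16722 features. The threshold for a call was an adjusted p of 0.05. Changes carry their standard error (SE). The number of arrays limits the precision. The fit was tested on simulated data.

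The naming rule took the 20 largest called rises and the 20 largest called falls whose arrays do not overlap. It also took up to 6 called members and 2 bright members that did not pass for each list, and the 5 largest differences each way elsewhere. The gene lists and this rule were chosen with earlier results of these data known. The 83 called genes followed under the alternatives are those that the rule took from the ranking and the lists. Some other called genes, such as AT5G37670 and AT2G14510, are given with values only and are not among the 83. Alternatives covered the arrays fitted, the features tested, scaling, moderation, a replicate block and leaving out each array.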

Additional observations from a re-analysis of the deposited data

Results flagged for a closer look

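For 23 of the named genes the response to H2O2 differed between CRF6oe and WT by the test of the difference itself (limma, adjusted p under 0.05). Many named genes were chosen on their WT response, which enters the difference. Others were named as the largest of these differences, so the number 23 is no result. Over all genes the response differed for 95 of 16548 (0.574%). The CRF6oe arrays stand apart from all others, and the part of this in the differences was not tested. Many of these calls were lost when an array was left out or other arrays or features were fitted, and fewer with another scaling (19 and 23 kept). Of the 23, 1 passed with only the 8 arrays, 5 with all features tested, 5 without CRF6oe untreated replicate 1 or without CRF6oe H2O2 replicate 1, 6 without WT untreated replicate 2, and 9 to 16 without any 1 of the other 5 arrays. No sign changed under these alternatives. Values are the response in CRF6oe minus that in WT on the log2 scale, with 2 arrays in each group.

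Among genes that fell in WT, the difference was 3.43 for AT3G20380, 3.17 for AT5G43520, 2.64 for AT1G53610, 2.63 for AT1G05700 and 2.63 for the serine carboxypeptidase-like gene scpl28 (AT2G35770). AT5G43520 went from 6.53 and 6.52 to 3.82 and 4.63 in WT and from 4.37 and 4.58 to 5.33 and 5.35 in CRF6oe, so the lines started at different levels. The peroxidases AT3G01190 and AT4G30170 differed by 2.55 and 2.35, the receptor kinases AT1G07560 and AT2G28960 by 2.18 and 2.12, and AT2G21045, AT2G20030 and AT3G54040 by 2.14, 1.8 and 1.64.

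Among genes that rose in WT, the difference was -3.1 for AT2G41730, -2.73 for AT4G08555, -2.37 for UGT73B3 (AT4G34131), -2.31 for COR15A (AT2G42540), -2.19 for AT5G54165, -1.84 for KIN2 (AT5G15970) and -1.8 for AT5G22140. COR15A read 7.97 and 7.64 in untreated CRF6oe and 8.16 and 7.49 with H2O2. The TIR-domain gene AT3G04220 differed by -1.95 and AT5G19440 by -1.52.

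A further pair did not pass in WT. AT3G54580, an extensin-like gene, differed by -2.97, with -1.15 in WT and -4.12 in CRF6oe, where it read 7.85 and 7.22 untreated and 3.63 and 3.19 with H2O2. AT1G02470 differed by -2.71, with 0.60 and -2.11.

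Features without a single gene name also carried signal. Of 21686 such features, 196 were higher and 156 lower with H2O2 in WT at an adjusted p under 0.05 in a fit of all features, 1.62% together, with a largest rise of 5.46 and a largest fall of -3.52. Which genes they measure is not given here.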

How the results depend on the processing

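Replicates give 2 arrays a group, so 1 array decides many calls. For H2O2 against untreated in WT, 475 genes (249 higher, 226 lower), the count was 155 (83 and 72) with only the 4 arrays and 312 (165 and 147) with all features tested. Leaving out 1 array in turn gave 188 to 525 (96 to 332 higher, 92 to 193 lower). The count stayed within 1.5 times under the other alternatives, including the 387 that changed at least 2-fold, a limit chosen after seeing the data. Of the 475 genes 144 were called with only the 4 arrays and 178 to 335 with 1 array left out, none with another sign. The response difference between crf6 and WT stayed at 0 under every alternative. That between CRF6oe and WT, 95, was 1 with only the 8 arrays, 10 with all features and 12 to 100 with 1 array left out. H2O2 against BA in WT, 839 (476 and 363), was 191 (113 and 78) with only the 4 arrays and 257 to 1020 with 1 array left out (158 to 556 higher, 99 to 464 lower). Of 83 called genes that are named, 31 lost their call with at least 1 array left out. With arrays centred on their median, the median of all genes went from -0.02 to 0.04 for H2O2 against untreated in WT. For the response difference between CRF6oe and WT it went from 0.05 to -0.06. Same-numbered WT arrays deviated together (r = 0.22 to 0.33 over genes), crf6 arrays hardly (0.04 to 0.06) and CRF6oe arrays unevenly (-0.20 to 0.17), and nothing in the labels says that a number marks a shared batch. With the replicate number as a block within genotype the counts were 570 (314 higher, 256 lower), 0, 75 and 1097 (599 and 498), in the same order. The block ended the calls of 3 of the 83 named genes, UGT73C1, ATGSTF13 and AT1G72920 (adjusted p = 0.0577, 0.0692 and 0.0579).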

Other observations

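Further gene groups were picked after their values had been seen, so their counts describe these arrays and support nothing. TIR-domain proteins, which include nucleotide-binding immune receptors and shorter relatives, were often higher with H2O2 in WT. Of 15 measured, 8 rose and 2 fell, with a median of 1.20. AT1G57630 read 6.79 and 6.62 untreated and 9.51 and 8.35 with H2O2, AT1G72900 read 6.70 and 5.45 untreated and 8.50 and 7.88 with H2O2 and AT3G04220 read 3.81 and 4.11 untreated and 6.02 and 6.01 with H2O2, with every H2O2 array above the untreated ones. AT5G44910 and AT5G45220 fell to 5.98 and 5.06 and 3.32 and 3.21. The 8 rises were 2 with only the 4 arrays and 1 without H2O2 replicate 1. In the family of cinnamoyl-CoA reductases and cinnamyl-alcohol dehydrogenases, enzymes of lignin and related phenolics, 5 of 12 rose and none fell. CCR2 (AT1G80820) read 5.02 and 5.76 untreated and 8.19 and 7.71 with H2O2, and AT1G09500 rose by 2.74 ± 0.38 while its relative AT1G09490 stood at 0.37.

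ER bodies are compartments of Brassicaceae cells filled with beta-glucosidases that meet jacalin-related lectins when the cell breaks. Of 11 measured genes of their enzymes and partners, 4 fell and none rose with H2O2 in WT, with a median of -0.57. The beta-glucosidases BGLU21 (AT1G66270) and BGLU22 (AT1G66280), neighbours in gene order, read 8.74 and 9.14 untreated and 6.13 and 7.30 with H2O2 for the former and 8.49 and 8.25 untreated and 6.38 and 6.43 with H2O2 for the latter. NAI2 (AT3G15950), needed to form the bodies, fell by 2.69-fold and the lectin JAL34 (AT3G16460) by 2.48-fold. PYK10 (AT3G09260), the main beta-glucosidase of roots, stood at -0.57 and did not pass. With BA the median of the 11 was 0.55, and H2O2 was below BA for 7 of them, among them PYK10 (adjusted p = 0.00642, limma). The 4 falls were 1 without H2O2 replicate 1 and 2 with only the 4 arrays.

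Some called genes lie next to each other in the RefSeq gene order. There were 11 runs of rising genes, each of 2, and 9 runs of falling genes with 21 genes in all. The longest was that of the 4 receptor kinases from AT1G51830 to AT1G51860. The number of runs to expect at random was not computed. Some runs hold close relatives, such as UGT73B4 and UGT73B5, whose signals cannot be told apart here. A further 9 genes were called in WT with H2O2 and with BA, 7 of them lower in both treatments, such as the cell wall invertase cwINV6 (AT5G11920) at -1.53 and -1.39. These comparisons share the untreated arrays.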
